A study of Macaca fascicularis with 34 samples.

Results

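The genes described here are the zinc finger genes of chromosome 19 whose human symbol is ZNF followed by a number, measured in 34 single cells of cynomolgus monkey (Macaca fascicularis, a long-tailed macaque). The symbol rule found 178 such genes among the 28551 genes of the table, and the 163 with a mean of at least 1 RPM (reads scaled to the library total) over the 34 cells were kept. The members were thus chosen by their mean level over these same cells, and the classes below by NANOG, so those levels are a description and support nothing here. Just inside that limit were ZNF599 at 1.33 RPM, ZNF540 at 1.21 RPM and ZNF626 at 1.09 RPM, and just outside it were ZNF554 at 0.953 RPM, ZNF546 at 0.625 RPM and ZNF14 at 0.575 RPM. Each of the 15 genes left out had a read in at least 1 cell.

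Per the labels, 25 cells came from embryos, with 3 cells at embryonic day (E) 13, 1 at E14, 11 at E16, 2 at E17 and 8 at E20, and 9 cells came from male gonads, with 6 at E36, 1 at E47 and 2 at E55. All are of the subspecies fascicularis, and the labels give no treatment, no genotype, no animal and no cell type. The study asked where and when germ cells arise in this primate, and germ cells express NANOG, a transcription factor of pluripotent and early germ cells. The 18 embryo cells with at least 400 RPM of NANOG are called NANOG-high embryo cells (3 of E13, 1 of E14, 10 of E16, 2 of E17 and 2 of E20), the 7 below it other embryo cells (1 of E16 and 6 of E20). The threshold fell between E20 cell 5 at 534 RPM and E20 cell 8 at 566 RPM inside, and E16 cell 8 at 222 RPM and E20 cell 4 at 124 RPM outside. The 9 gonad cells, also all at or above 400 RPM (lowest 479 RPM in E55 cell 2), form the third class.

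Most ZNF genes of primate chromosome 19 encode proteins in which an array of C2H2 zinc fingers reads a DNA sequence and a KRAB domain recruits the corepressor TRIM28. TRIM28 in turn brings the histone methyltransferase SETDB1 and HP1 proteins, and the bound DNA, often a transposable element, is packed into silent chromatin. The genes lie in clusters that arose by repeated duplication, and in early embryos and germ cells, where DNA methylation is erased, this system is known for holding retroelements silent and for protecting imprinted genes. Since members are related copies, reads shared between close paralogs are uncertain, and 30 of the 163 carry a human symbol that differs from the table's own name, in 27 cases because that name is only a locus number.

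Recovered depth ran from 472190 reads in E13 cell 1 to 3556614 reads in E16 cell 3. Of 10 germ cell markers, 8 reached a mean of 15 RPM in NANOG-high embryo cells, 6 in other embryo cells and all 10 in gonad cells. A median of 15 RPM was reached by 7, 4 and 10 of them. Of 6 mesoderm markers, 4 reached a mean of 15 RPM in NANOG-high embryo cells, 6 in other embryo cells and 1 in gonad cells. By median the numbers were 2, 6 and 0, so the classes share part of both lists. E20 cell 5, which is NANOG-high, also had 5 of 6 mesoderm markers at 15 RPM or more, at a summed 8451 RPM. Gonadal somatic markers summed to between 20.9 and 20215 RPM in the gonad cells, with the highest sum in the E47 cell (6 of 7 markers at 15 RPM or more), 1016 RPM in E36 cell 5 (5 markers), 403 RPM in E36 cell 1 (3 markers) and 314 RPM in E55 cell 2 (2 markers); their part in the gonad values was not tested. Among the other embryo cells, E16 cell 8 also had 4692 RPM of endoderm and 641 RPM of trophoblast markers and E20 cell 1 had 1212 RPM of blood and endothelium markers, and the part of these was not tested. Since a sample is a single cell and animals are not named, a stage or class counts as 1 sample: values are given with the spread over cells, and no difference was tested.

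The 163 genes together took a small and rather even share of the transcriptome. Their summed level ran from 1589 RPM in E20 cell 7 to 3519 RPM in E55 cell 2, which is 0.159% to 0.352% of the table. Mean sums were 2352 ± 330 RPM at E13 (SD over cells, n = 3 cells), 2668 ± 222 RPM at E16 (n = 11), 2273 ± 528 RPM at E20 (n = 8) and 2103 ± 330 RPM at E36 (n = 6), and the single E14 and E47 cells had 2425 and 2818 RPM. The 2 cells of E17 averaged 2733 ± 722 RPM and the 2 of E55 averaged 3124 ± 558 RPM. By class the mean was 2586 ± 297 RPM in NANOG-high embryo cells, 2275 ± 591 RPM in other embryo cells and 2409 ± 571 RPM in gonad cells. These ranges overlap, and the sum of the family does not separate the classes.

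Which genes made up that sum differed from cell to cell. Thinned to 470000 reads, a cell was expected to show a read for 57.1 to 151 of the 163 genes. The highest number was in E16 cell 8, an other embryo cell in which 161 of the 163 had a read before thinning. E20 cell 1, the E47 cell and E55 cell 2 also lay high. These cells also had the most genes of any kind after thinning, at 13363, 12039, 11913.5 and 10869 in that order. Their high numbers are thus not particular to the family. Members made up 0.719% to 1.17% of the genes detected per cell after thinning.

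**Figure D1:**
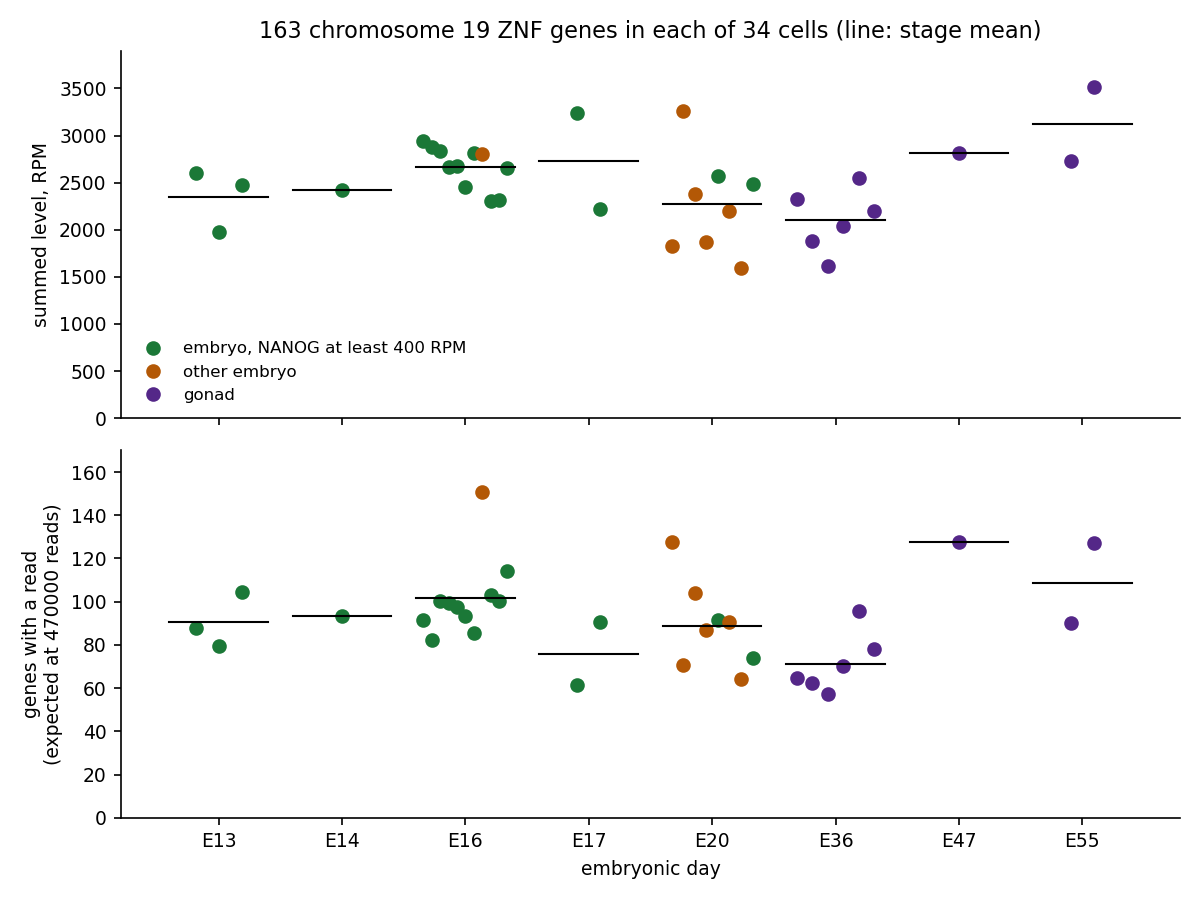
Summed level of the 163 genes in RPM (top) and number of them expected with a read at 470000 reads (bottom) in each of 34 cells by embryonic day; points are cells coloured by class and lines are stage means. The sums lie between 1589 and 3519 RPM with overlapping classes, and E16 cell 8 has the highest number of genes with a read.

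Most members were low and patchy. Their mean levels had a median of 11.1 RPM, against 14.2 RPM for the 216 ZNF genes of other chromosomes and 19.7 RPM for all 14459 genes with the same minimum. Mean level was 50 RPM or more for 6 members, 10 to 50 RPM for 85, 5 to 10 RPM for 44 and 1 to 5 RPM for 28. The median member had a read in 23 of 34 cells (28 for all genes), 10 members had a read in all 34 cells, and 31 in fewer than 17. The comparison with all genes was not matched for level, which was lower for the members. A level of 15 RPM was reached in at least 17 cells by 27 members and in no cell by 3. At class level the family was broadly present: 161 of 163 had a read in each of the 3 classes.

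ZNF581 had the highest mean level, 93.1 ± 49.5 RPM (SD, n = 34 cells), with 12.6 RPM in the lowest cell, a median of 94.4 RPM and 259 RPM in E17 cell 1. It had a read in all 34 cells and reached 15 RPM in 33 of them. The class ranges overlapped, at 24.8 to 259 RPM in NANOG-high embryo cells, 32.6 to 111 RPM in other embryo cells and 12.6 to 118 RPM in gonad cells.

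Next in order were ZNF766 at 65.3 ± 49.6 RPM, ZNF534 at 62.5 ± 53.3 RPM, ZNF506 at 55.4 ± 58.2 RPM, ZNF426 at 53.1 ± 35.0 RPM and ZNF134 at 50.5 ± 38.5 RPM, followed by ZNF614, ZNF559, ZNF776 and ZNF160 between 47.7 and 41.4 RPM. Neighbours in this order did not differ beyond the spread of the cells. RPM of 3′ end reads is not divided by gene length, and the order also reflects how well each 3′ end is annotated and captured. These 10 genes held 22.5% of the summed mean level. Which member ranked first still varied: 17 different members were the highest of the family in at least 1 cell, ZNF581 in 6 cells and ZNF534 and ZNF766 in 5 each.

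A few low genes were even across cells. ZNF556 averaged 7.45 ± 3.60 RPM and had a read in all 34 cells, between 1.92 and 14.8 RPM. ZNF333 averaged 10.6 ± 7.04 RPM, between 1.54 and 34.3 RPM, again with a read in every cell. ZNF442, in contrast, had a mean of 19.3 RPM, of which a single cell with 318 RPM, E20 cell 2, made up much of the total, and its median over cells was 1.27 RPM.

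**Figure D2:**
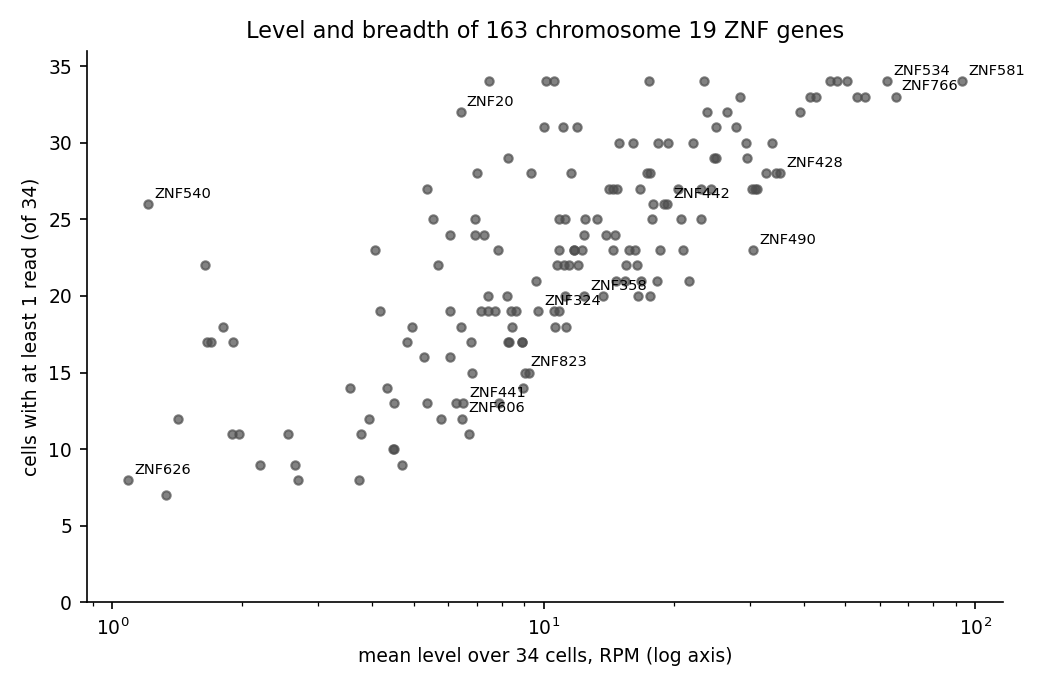
Number of cells with at least 1 read (vertical axis, of 34) against the mean level over 34 cells in RPM (horizontal, log axis) for the 163 genes, 1 point per gene. Breadth tends to grow with level, but genes of like mean differ widely: ZNF20 at 6.41 RPM had a read in 32 cells and ZNF606 at 6.46 RPM in 12.

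Several members with a known role were among the low genes. ZNF91, known in human for repressing SVA elements, averaged 2.55 RPM, with 44.5 RPM in E16 cell 6, 29.0 RPM in the E14 cell and at most 5.43 RPM elsewhere. ZNF93, known for repressing a class of LINE-1 elements, had a median of 0.628 RPM in NANOG-high embryo cells, 6.26 RPM in other embryo cells and 0.679 RPM, with up to 94.4 RPM, in gonad cells. ZNF541, known from meiotic chromatin in the testis, had 35.4 RPM in E13 cell 3 and a read in 1 gonad cell, E36 cell 2. None of these separated the classes.

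ZNF274, which binds the 3′ ends of ZNF genes themselves and recruits SETDB1, averaged 33.6 ± 44.7 RPM in NANOG-high embryo cells, 23.0 ± 27.5 RPM in other embryo cells and 31.4 ± 31.3 RPM in gonad cells. ZNF331, an imprinted gene in human, averaged 21.4 ± 27.8, 11.2 ± 9.91 and 20.3 ± 19.1 RPM in the same order of classes. ZNF568, whose mouse counterpart represses a placental Igf2 transcript, averaged 14.7 ± 18.3, 5.71 ± 8.14 and 8.03 ± 13.3 RPM. In each of the 3 the spread over cells was about as large as the mean and the class ranges overlapped. ZNF649 and ZNF808 were not analysed here.

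ZNF428, ZNF490 and ZNF296 had the largest differences upward of NANOG-high minus other embryo cells, and were also higher in the gonad cells than in the other embryo cells. In the same contrast ZNF358 (-2.68) and ZNF823 (-2.57) went the other way, by more than ZNF296 (2.35). Class is here nearly the same split as stage and label code, and their parts were not tested. ZNF428 had 0 to 246 RPM with a median of 26.1 RPM in the 18 NANOG-high embryo cells, 0 to 3.44 RPM with a median of 0 RPM in the 7 other embryo cells, and 1.96 to 133 RPM with a median of 20.0 RPM in the 9 gonad cells. Its mean was 42.6 ± 56.3 RPM in NANOG-high embryo cells and 0.875 ± 1.51 RPM in other embryo cells, a 48.7-fold ratio and a difference of 3.88 in mean log2(RPM + 1). Low NANOG-high cells were E17 cell 1 at 0 RPM, the E14 cell at 0.433 RPM and E16 cell 4 at 2.90 RPM, so the ranges overlapped there. Pooled over cells, the other embryo cells had 11 ZNF428 reads, a level of 1.05 RPM with an exact Poisson 95% interval of 0.524 to 1.88 RPM, and the gonad cells had 543 reads, 35.8 RPM with an interval of 32.9 to 39.0 RPM. No molecular identifiers mark the amplified cDNA, so intervals here cover counting error only.

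ZNF490 had 0 to 180 RPM with a median of 24.2 RPM in NANOG-high embryo cells, 0 to 4.47 RPM with a median of 0 RPM in other embryo cells, and 0 to 99.4 RPM with a median of 23.5 RPM in gonad cells. Its means were 39.7 ± 49.3, 0.934 ± 1.74 and 35.1 ± 38.3 RPM, and the difference of NANOG-high minus other embryo cells was 3.09 in mean log2(RPM + 1). It was patchy: 4 NANOG-high and 2 gonad cells had no read.

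ZNF296, a zinc finger gene known from pluripotent and germ cells, was lower but showed the same order of class medians. It had 0 to 28.4 RPM with a median of 5.70 RPM in NANOG-high embryo cells and 0 to 16.6 RPM with a median of 3.74 RPM in gonad cells. In the other embryo cells it had a read in 1 of 7, E16 cell 8 at 1.79 RPM, and the pooled 4 reads gave 0.382 RPM with an interval of 0.104 to 0.977 RPM. The difference of NANOG-high minus other embryo cells was 2.35.

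At E20, whose cells fall in both classes, the contrast rested mainly on E20 cell 5. That cell had 24.4 RPM of ZNF428, 109 RPM of ZNF490 and 15.2 RPM of ZNF296. No read of any of the 3 genes was found in 5 of the 6 other embryo cells of E20, and the sixth, E20 cell 1, had 3.44 RPM of ZNF428 and 2.06 RPM of ZNF490. E20 cell 8, also NANOG-high, had 9.59, 0.369 and 0.738 RPM of the 3 genes, above all 6 for ZNF428 but below E20 cell 1 for ZNF490. E20 cell 5 also held mesoderm transcripts, whose part in these values was not tested.

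ZNF534, linked in human pluripotent cells to HERV-H elements, showed a smaller difference of the same kind on a higher level. It had 3.31 to 203 RPM with a median of 63.7 RPM in NANOG-high embryo cells, 0.739 to 35.3 RPM with a median of 23.7 RPM in other embryo cells, and 6.82 to 181 RPM with a median of 69.8 RPM in gonad cells. Every cell had a read, and the classes overlapped below 35.3 RPM. The difference of NANOG-high minus other embryo cells was 1.59, and that of gonad minus embryo cells 0.37.

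**Figure D3:**
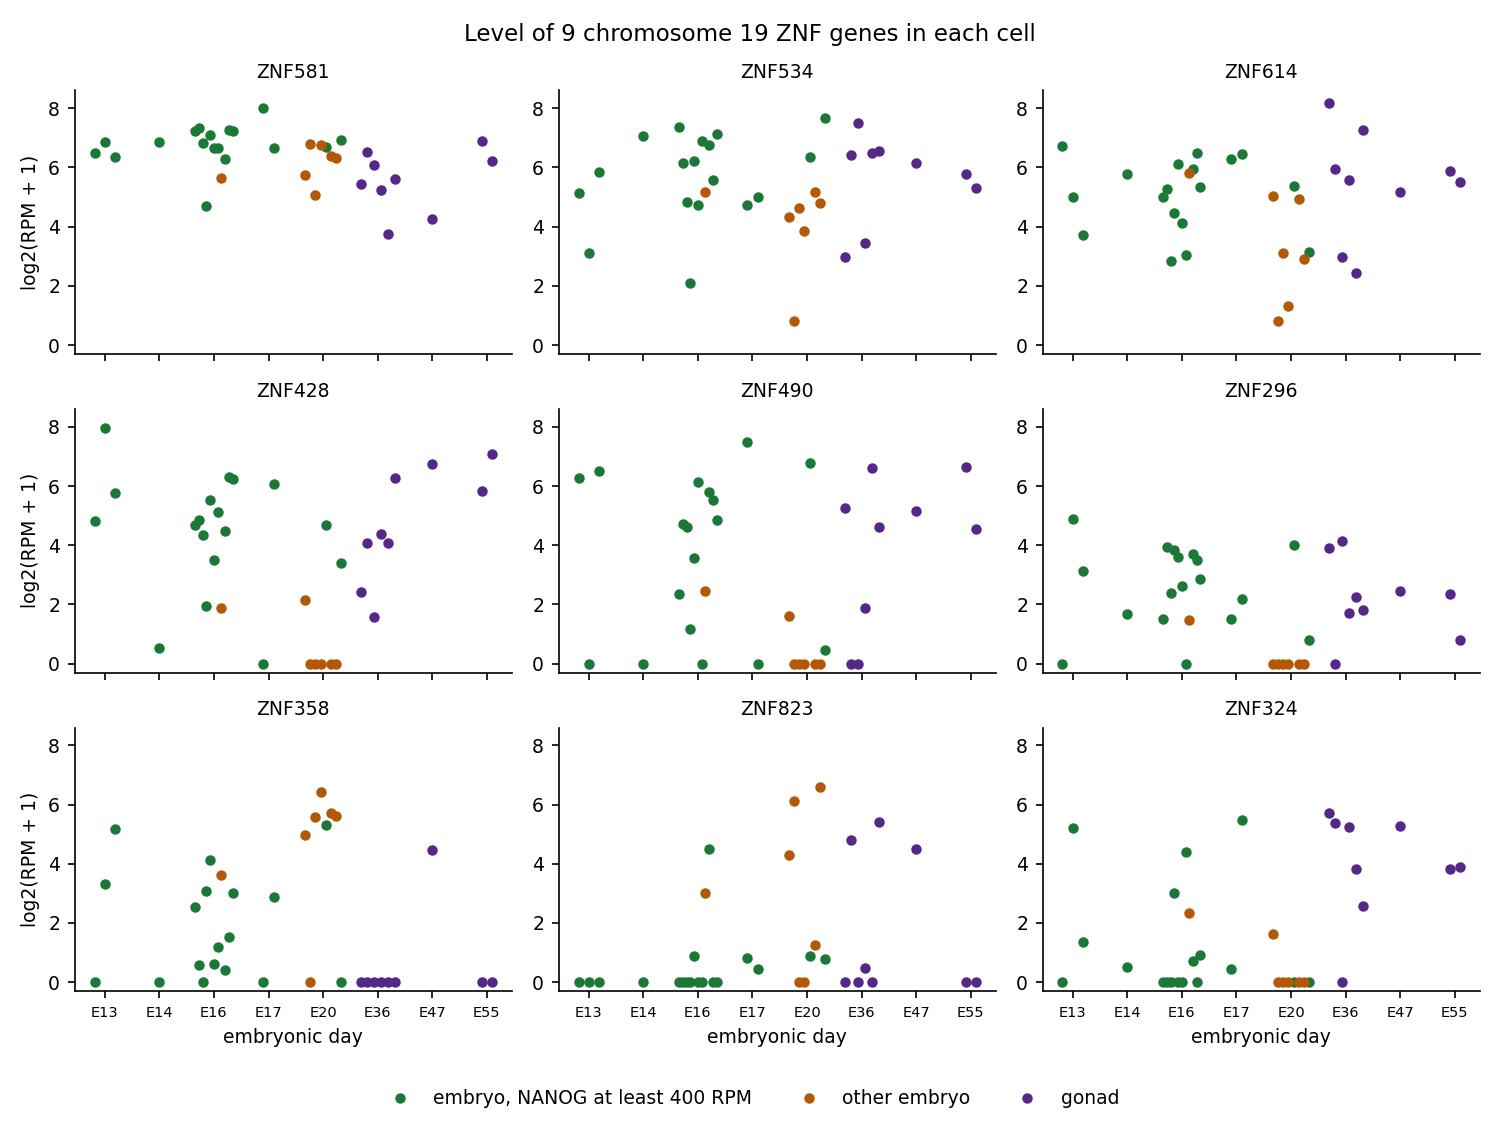
Level of 9 of the genes as log2(RPM + 1) in each of 34 cells by embryonic day, with points coloured by class. ZNF428, ZNF490 and ZNF296 are at or near 0 in the other embryo cells, ZNF358 is at 0 in all E36 and E55 cells, and ZNF581 has a read in every cell.

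In all, 9 members had a mean RPM at least 4-fold lower in the other embryo cells than in both other classes. Each of those classes had to reach a mean of 5 RPM. The 9 were ZNF428, ZNF490, ZNF548, ZNF566, ZNF536, ZNF324, ZNF266, ZNF584 and ZNF296. That is 5.52% of the members, where the same rule, which was chosen after the values were seen, held for 2.95% of all 14459 genes and 0.463% of the ZNF genes of other chromosomes. It held for 4 members in the NANOG-high embryo cells (ZNF224, ZNF823, ZNF441 and ZNF677; 2.45%, all genes 1.16%) and for 2 in the gonad cells (ZNF573 and ZNF175; 1.23%, all genes 2.75%). Without E16 cell 8, whose library held the most members, the first number was 16 (4.24% of all genes). At a NANOG limit of 800 RPM it was 2 (1.07% of all genes). By mean log2(RPM + 1), NANOG-high minus other embryo cells differed by less than 1 for ZNF548 (0.78), ZNF584 (0.74) and ZNF324 (0.66). For the others of the 9 that difference was 1.04 or more. A mean of RPM can rest on a few high cells.

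Members specific to 1 class, at a mean of 5 RPM or more and at least 4-fold above the mean RPM of both other classes, were few. The NANOG-high embryo cells had 2, ZNF543 and ZNF845 (1.23% of members; 1.49% of all genes). The other embryo cells had 2, ZNF358 and ZNF442 (1.23%; 6.88% of all genes), and the gonad cells had 1, ZNF284 (0.613%; 2.07% of all genes). Each share of members lay below that of all genes, but rested on only 2, 2 and 1 members. For the NANOG-high embryo cells the shares were near each other. Leaving out 1 cell at a time moved the numbers to between 1 and 3, 1 and 5, and 1 and 2. The first fell to 1 without E16 cell 3, for example, and the third rose to 2 without E20 cell 3. The second fell to 1 without E20 cell 2 and rose to 5 without E36 cell 6. The share of all genes was not counted with cells left out.

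These specific members rested on few cells. ZNF543 reached 106 RPM in E16 cell 3, 52.9 RPM in E13 cell 2, 33.0 RPM in E16 cell 10 and 23.5 RPM in E16 cell 2, and 11 of the 18 NANOG-high embryo cells had no read. ZNF845 had up to 67.8 RPM, in E13 cell 1, with a median of 0.843 RPM in the NANOG-high embryo cells. ZNF284 had 45.2 RPM in E36 cell 5 and 49.4 RPM in E36 cell 6, 5.79 RPM in E55 cell 2 and no read in the other 6 gonad cells. E36 cell 5 had 1016 RPM of gonadal somatic markers, and their part was not tested.

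ZNF358 was the exception, high in most cells of its class. It had 0 RPM in E20 cell 2 but 30.2, 46.7, 85.0, 51.1 and 47.6 RPM in E20 cells 1, 3, 4, 6 and 7, while E16 cell 8 had 11.2 RPM, for a mean of 38.8 ± 28.2 RPM over the 7 other embryo cells. The 18 NANOG-high embryo cells had 0 to 38.8 RPM with a median of 1.56 RPM, the highest being E20 cell 5. In the gonad it was read only in the E47 cell, at 20.9 RPM, and all 6 E36 and both E55 cells were at 0.

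Between the embryo cells above and below the NANOG limit, the family as a whole differed little. Of the 7 other embryo cells, 6 are E20 cells with the label code MS08. Among the 18 NANOG-high embryo cells only E20 cell 5 carries that code. Class, stage and code are thus nearly the same split, and their parts were not tested. Of the 163 members, 22 were at least 2-fold higher in the NANOG-high cells (13.5%; 12.5% of all genes) and 25 at least 2-fold lower (15.3%; 23.2% of all genes). The median difference was -0.02, against -0.14 for all genes and -0.24 for the ZNF genes of other chromosomes, of which 26.9% were at least 2-fold lower. After ZNF428, ZNF490 and ZNF296, the largest differences upward were those of ZNF582 (1.86), ZNF17 (1.78) and ZNF614 (1.64). Without the E20 cells, which leaves E16 cell 8 as the single other embryo cell, the differences of ZNF582 and ZNF614 were -2.10 and -0.66, and 7 members were higher (5.39% of all genes) and 94 lower (40.7% of all genes). The median difference was then -1.15, and that of all genes -0.70.

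In the other direction, after ZNF358 (-2.68), stood ZNF823 (-2.57), ZNF780A (-2.28), ZNF224 (-2.26), ZNF507 (-2.04) and ZNF441 (-1.88). ZNF823 was sparse: it had 95.1, 68.0 and 18.6 RPM in E20 cells 7, 2 and 1, while E16 cell 9 had 21.8 RPM and the other 17 NANOG-high embryo cells at most 0.843 RPM. ZNF224, a KRAB repressor, had a read in 6 of 7 other embryo cells and in 9 of 18 NANOG-high ones, with means of 21.1 ± 22.4 and 4.30 ± 8.11 RPM. It was as high in the gonad cells, at 19.5 ± 21.7 RPM. The classes overlapped for each of these genes.

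Between gonad and embryo cells the family lay close to the rest of the genome. At least 2-fold higher in the gonad were 12 members (7.36%; 8.01% of all genes) and at least 2-fold lower 20 (12.3%; 15.9% of all genes). The median difference was -0.17, beside -0.19 for all genes, -0.26 for ZNF genes of other chromosomes and -0.24 for the other 768 genes of chromosome 19. Among cells of label code MS11 alone, which sets the gonad cells against the 2 E17 cells, 50 members were higher (24.6% of all genes) and 38 lower (21.1% of all genes), and the median difference was 0.50, with 0.13 for all genes.

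ZNF324 had the largest difference upward, 2.93. It was read in 8 of 9 gonad cells, from 0 RPM in E36 cell 3 to 51.8 RPM in E36 cell 1 with a median of 13.8 RPM, and had a median of 0.187 RPM in NANOG-high embryo cells and 0 RPM in other embryo cells. A few embryo cells were as high, E17 cell 2 at 43.7 RPM, E13 cell 2 at 36.1 RPM and E16 cell 7 at 19.9 RPM, so the groups overlapped. Pooled, the gonad cells had 374 reads, a level of 24.7 RPM with an interval of 22.2 to 27.3 RPM.

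ZNF441 followed with a difference of 1.91. It had 80.3 RPM in E36 cell 1, 39.1 RPM in E55 cell 2, 18.5 RPM in E36 cell 6, 18.4 RPM in E55 cell 1, 9.98 RPM in the E47 cell and 0 or 0.385 RPM in the other 4 gonad cells. Only 2 of the 18 NANOG-high embryo cells had a read. ZNF583 (1.65), ZNF560 (1.58), ZNF559, ZNF224 (1.36), ZNF428 (1.35) and ZNF566 (1.19) completed the highest 8. ZNF559 was the broadest of them, with a read in all 34 cells, a mean of 78.7 ± 60.6 RPM in the gonad and medians of 77.9 RPM there, 22.7 RPM in NANOG-high and 21.0 RPM in other embryo cells. Its ranges overlapped, at 6.79 to 218 RPM in the gonad and 0.510 to 123 RPM in the embryo. ZNF560 depended on which embryo cells were set against the gonad: against the 2 E17 cells alone, which share the label code MS11 with the gonad cells, its difference was -0.15.

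Lower in the gonad were ZNF17 (-2.16), ZNF358 (-2.13), ZNF573 (-1.86), ZNF480 (-1.66), ZNF415 (-1.65), ZNF473 (-1.56), ZNF175 (-1.51) and ZNF419 (-1.47). In the E36 cells some had few or no reads: ZNF358, ZNF573 and ZNF175 had no read in any of the 6 cells, which allows a level of up to 0.256 RPM (3 reads of their summed depth), and ZNF17 had 1.23 RPM in E36 cell 2 and 0 in the other 5. The later gonad cells were mixed. ZNF17 had 26.1 and 8.20 RPM in E55 cells 2 and 1 and 0 in the E47 cell. ZNF573 had 20.5 RPM in E55 cell 1 and 0 in the other 2, and ZNF175 had 17.2 RPM in the E47 cell, 2.05 RPM in E55 cell 1 and 0 in E55 cell 2. Over the gonad cells ZNF17 had 3.95 ± 8.72 RPM, against 27.2 ± 28.0 RPM in NANOG-high and 10.7 ± 16.7 RPM in other embryo cells. Zeros were common in the embryo as well (4 of 18 NANOG-high and 4 of 7 other embryo cells for ZNF17), so the groups overlapped.

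ZNF473, whose human protein acts with the U7 particle in the processing of histone transcripts, had a median of 8.83 RPM in the gonad cells, against 27.9 RPM in both embryo classes. Means were 13.6 ± 19.5 RPM in the gonad, 37.3 ± 38.4 RPM in NANOG-high and 38.2 ± 37.5 RPM in other embryo cells. ZNF480 had 1.38 ± 1.75 RPM in the E36 cells, with 4.41 RPM in the highest, while the E47 cell had 18.1 RPM and E55 cell 1 had 16.4 RPM. The number of members at least 2-fold lower depended on which gonad cells entered. It was 32 in place of 20 without the E47 cell (19.6% of all genes), 41 without E36 cell 5 as well (21.9% of all genes) and 55 with E55 cell 2 left out too (26.2% of all genes). Without the 3 gonad cells that had at least 3 gonadal somatic markers at 15 RPM, which are E36 cells 1 and 5 and the E47 cell, it was 34 (20.6% of all genes).

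**Figure D4:**
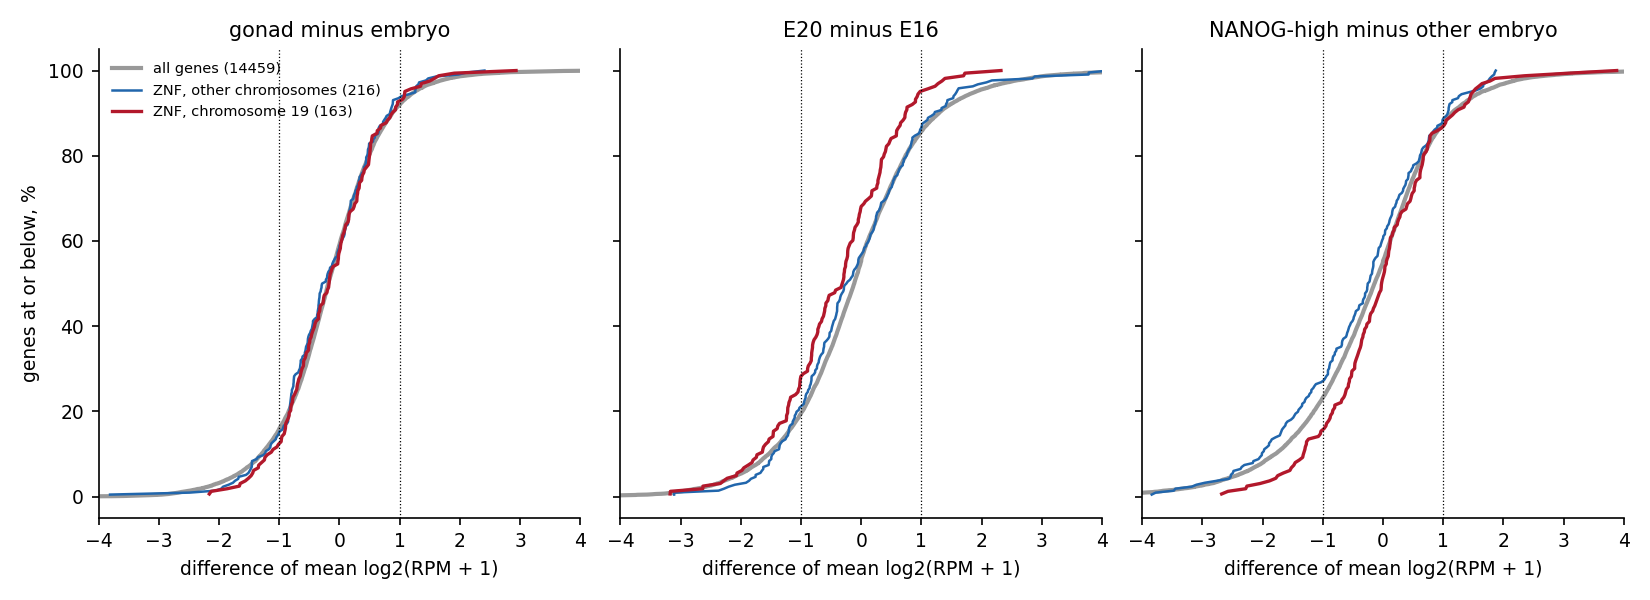
Percent of genes at or below each difference of mean log2(RPM + 1) for the 163 chromosome 19 genes, the 216 ZNF genes of other chromosomes and all 14459 genes; dotted lines mark a 2-fold difference and values beyond 4 are not drawn. The 163 genes follow all genes in gonad minus embryo (medians -0.17 and -0.19) and lie to the left of them in E20 minus E16 (medians -0.31 and -0.12).

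From E16 to E20, with the pseudocount of 1, the members were lower more often than other genes. Only 8 of 163 were at least 2-fold higher at E20 (4.91%; 14.3% of all genes and 13.4% of ZNF genes of other chromosomes), and 46 were at least 2-fold lower (28.2%; 19.6% of all genes and 20.8% of ZNF genes of other chromosomes). With a pseudocount of 10, 7 of 163 were lower, beside 6.51% of all genes, so members were then not lower more often. The median difference at a pseudocount of 1 was -0.31, beside -0.12 for all genes. It was -0.24 for ZNF genes of other chromosomes and -0.09 for the other chromosome 19 genes. E20 cells 1 to 7 carry the label code MS08 and the E16 cells MS09, and 10 of 11 E16 cells but 2 of 8 E20 cells were NANOG-high, so stage, code and class cannot be told apart. In E20 cell 8 alone, which shares the code of the E16 cells, 35 members were higher (18.6% of all genes) and 82 lower (37.8% of all genes), and among NANOG-high cells of both stages 29 were higher (16.9% of all genes). Without E16 cell 8 the number higher was 13 (16.97% of all genes).

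ZNF582 (-3.17) and ZNF428 (-3.17) had the largest differences. ZNF582 had a read in all 11 E16 cells, from 0.737 to 70.9 RPM with a median of 14.7 RPM, and in 1 of 8 E20 cells, E20 cell 5 at 11.8 RPM. It was also listed at 0 in both E17 cells and had at most 0.385 RPM in the E36 cells, but had 34.8 and 24.6 RPM in E55 cells 1 and 2.

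ZNF490 (-2.63), ZNF304 (-2.63), ZNF283 (-2.34) and ZNF676 (-2.29) followed. ZNF283 had a read in all 11 E16 cells, at 0.414 to 29.8 RPM with a median of 7.90 RPM, and at E20 0 to 1.48 RPM with a median of 0 RPM. ZNF676 had 0 to 104 RPM with a median of 24.9 RPM at E16 and 0 to 15.3 RPM with a median of 1.71 RPM at E20, and the ranges overlapped. The table's own name for the gene given as ZNF676 is ZNF208, a close paralog, so which of them its reads came from is uncertain.

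Higher at E20 were ZNF358 (2.32), ZNF823 (1.72), ZNF420 (1.70), ZNF780A (1.39), ZNF114 (1.34) and ZNF224 (1.28). ZNF358 had 0 to 16.3 RPM with a median of 1.86 RPM at E16 and 0 to 85.0 RPM with a median of 42.7 RPM at E20, where 6 of 8 cells exceeded the highest E16 cell. In E20 cell 8 it was at 0, so that its difference from E16 was -1.88 in that cell alone. ZNF420 reached 14.5 RPM at E16 and 58.1 RPM at E20, and it had a read in 1 of 6 E36 cells, at 0.340 RPM. For ZNF780A and ZNF224 the difference between NANOG-high cells of E20 and E16 was -1.03 and -0.58.

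Counting all 3 comparisons, 72 members differed by 2-fold in none (44.2%; 43.6% of all genes) and 34 in at least 2 of them (20.9%; 29.4% of all genes). Embryo cells enter each comparison, so the 3 are not independent of each other.

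Position along the chromosome was read from RefSeq gene order (assembly T2T-MFA8v1.1, used for order only), in which 155 members could be placed. They formed 77 pairs with no other protein-coding gene between them and 35 runs of 2 or more, of which 10 held at least 4 members and the longest, from ZNF45 to ZNF235, held 11. Spearman's rho over the 34 cells had a median of 0.04 between such neighbours, with quartiles of -0.06 and 0.23, and a median of 0.06 over all 11935 pairs of members, with quartiles of -0.06 and 0.18. The points share library and depth, and the values are sparse, so weak correlations carry little. The highest values among neighbours were 0.52 for ZNF561 with ZNF562 and 0.50 for ZNF223 with ZNF224, pairs of related copies between which reads may be shared.

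Neighbours had the same sign of difference in 39 of 77 pairs for gonad minus embryo and 44 for E20 minus E16. For NANOG-high minus other embryo cells the number was 36. Of all 163 members, 70, 52 and 80 were above 0 in these comparisons, so many pairs share a sign without being neighbours. The share over all pairs was not counted, and the numbers are no result about neighbours. Some runs were more uniform; they were picked after their values were seen. In the run of ZNF584, ZNF132, ZNF324B, ZNF324 and ZNF446, 4 of 5 genes were higher in the gonad (median difference 0.85) and 0 of 5 higher at E20 than at E16. In the run of ZNF548, ZNF17, ZNF419, ZNF749, ZNF772, ZNF773 and ZNF549, 1 of 7, ZNF548, was higher in the gonad, and the median difference was -0.89.

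**Figure D5:**
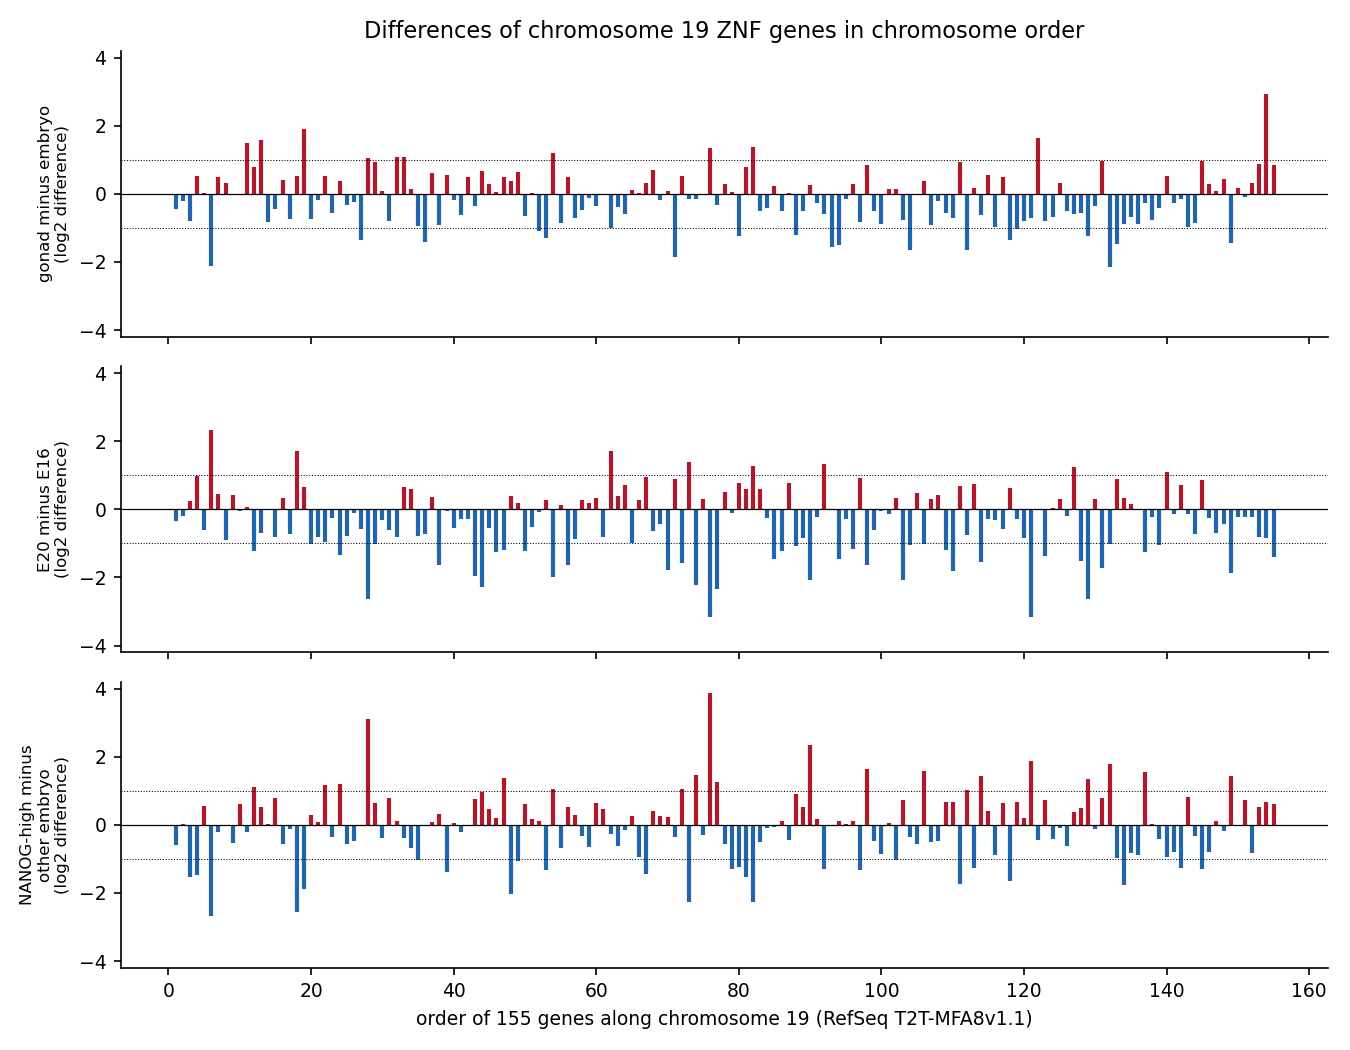
Difference of mean log2(RPM + 1) for each of 155 genes in RefSeq order along chromosome 19, for gonad minus embryo, E20 minus E16 and NANOG-high minus other embryo cells; red bars are above 0, blue below, and dotted lines mark a 2-fold difference. Bars of both signs are mixed along the chromosome. Of 77 neighbouring pairs, 39, 44 and 36 had the same sign, and the share over all pairs was not counted.

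Genes of the TRIM28 pathway, through which KRAB zinc finger proteins act, were measured as well, 21 of a list of 22 genes. The list also holds ZFP57 and ZNF445, which are KRAB zinc finger genes themselves. TRIM28 itself was high in every class, at 326 ± 200 RPM in NANOG-high embryo cells, 401 ± 129 RPM in other embryo cells and 287 ± 79.1 RPM in gonad cells, with 124 RPM in the lowest of the 34. SETDB1 had 14.3 to 281 RPM with a median of 133 RPM in NANOG-high embryo cells and 0 to 67.2 RPM with a median of 63.5 RPM in other embryo cells. In gonad cells it had 21.6 to 255 RPM with a median of 125 RPM. The ranges overlapped below 67.2 RPM. The HP1 gene CBX3 had means of 331 ± 141, 185 ± 124 and 350 ± 123 RPM in that order, and CBX1 had medians of 332, 259.5 and 302 RPM.

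For other genes of the list the other embryo cells were the highest class. CBX5, the third HP1 gene, had medians of 6.07, 67.4 and 0.340 RPM in NANOG-high embryo, other embryo and gonad cells. UHRF1, which brings the methyltransferase DNMT1 to newly copied DNA, had medians of 3.43, 174 and 6.15 RPM, and DNMT1 had 109 ± 72.5, 220 ± 107 and 34.8 ± 31.7 RPM. ZNF445, a KRAB zinc finger gene that protects imprints and lies outside the 163, had a read in 4 of 18, 5 of 7 and 1 of 9 cells, with means of 0.095, 22.6 and 0.504 RPM. ZFP57, which has the same known role, was low in all classes, with means of 0.755, 4.32 and 0.628 RPM.

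As a list, these genes differed in both directions. The counts include ZFP57 and ZNF445, and ZNF445 is among the genes past 2-fold for E20 minus E16 (1.94) and NANOG-high minus other embryo cells (-3.45). At least 2-fold higher and lower were 2 and 3 of 21 for gonad minus embryo, which is 9.52% and 14.3%, with 8.01% and 15.9% of all genes. The median difference was -0.05, with -0.19 for all genes. For E20 minus E16 they were 3 and 5, or 14.3% and 23.8%, with 14.3% and 19.6% of all genes. The median was -0.66, with -0.12 for all genes. For NANOG-high minus other embryo cells they were 4 and 4, or 19.05% each, with 12.5% and 23.2% of all genes. The median was 0.20, with -0.14 for all genes. These shares lie near those of all genes, while the medians differ from theirs most in the last 2 comparisons. Among those higher in the gonad was MORC2, a silencing factor, at 27.2 ± 21.0 RPM in the gonad against 8.58 ± 12.8 and 7.90 ± 11.3 RPM in the embryo classes.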

How the data were processed

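Transcripts of 34 single cells were read by SC3-seq, a method for the 3′ ends of amplified cDNA. Per the submitters' processing notes, cutadapt 1.3, TopHat 1.4.1 and Cufflinks 2.2.0 were used; the genome build is not given in the sources used here, nor is the annotation. The authors deposited 1 table of log2 values, log2(RPM + 1), which were turned back to RPM; reads per cell were recovered from the smallest step between values, and 60 values below 0.01 RPM were set to 0. No doublet caller was run. Differences are of mean log2(RPM + 1) (pseudocount 1), with at least 2-fold (1 on the log2 scale) counted as different. The mean minimum was 1 RPM. Members specific to a class or low in it were called on the mean RPM of each class. Named genes are the 10 highest members, the 8 or 6 largest differences in each direction of each comparison, class-specific members and a list with known roles. The members, classes and lists were chosen with earlier results of these data known. Counting intervals are exact Poisson at 95%. Of the 163 members, 156 were matched by gene ID to RefSeq (T2T-MFA8v1.1), used for names and order only; protein and promoter sequences were not analysed here. The scripts were tested on simulated data. Alternatives covered the pseudocount, means against medians, filters, scaling, the NANOG limit, label codes and leaving out cells. Computation used Python 3.11.15, numpy 2.4.6, pandas 2.3.3, scipy 1.17.1 and matplotlib 3.10.9.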

Additional observations from a re-analysis of the deposited data

Results flagged for a closer look

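The cells of E20 (8) and E36 (6) were screened for 1 cell far from the rest, where its distance from the next cell, divided by the range of the stage, exceeded Dixon's 95% critical value (0.526 and 0.625). Chance flags about 1 in 20 groups of normally spread values. That share does not apply here, since many values are 0 and most of the genes were picked for large differences: ZNF17, ZNF420 and ZNF582 at E36 and ZNF284 at E20 stood out for 1 read. Over 42 measures, 36 of 84 groups stood out, 21 at E20 and 15 at E36, each time for a cell that was the highest of its stage.

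E20 cell 1 was the highest and apart for ZNF324 (2.06 RPM) and ZNF566 (12.4 RPM). E20 cell 2 stood above the rest for ZNF114 (118 RPM), ZNF442 (318 RPM), ZNF506 (212 RPM) and ZNF780A (79.0 RPM). E20 cell 3 lay apart for ZNF175 (47.3 RPM), ZNF583 (26.8 RPM) and ZNF676 (15.3 RPM). E20 cell 5 was the single high cell for ZNF296 (15.2 RPM), ZNF415 (76.7 RPM), ZNF428 (24.4 RPM), ZNF490 (109 RPM) and ZNF582 (11.8 RPM). E20 cell 6 was the highest and apart for ZNF284 (0.681 RPM), ZNF543 (10.9 RPM) and ZNF560 (46.3 RPM). E20 cell 7 stood above the rest for ZNF419 (70.9 RPM) and ZNF559 (123 RPM). E20 cell 8 lay apart for ZNF534 (203 RPM) and ZNF573 (78.2 RPM).

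E36 cell 1 was the single high cell for ZNF441 (80.3 RPM). E36 cell 2 was the highest and apart for ZNF17 (1.23 RPM), ZNF415 (41.9 RPM) and ZNF583 (35.7 RPM). E36 cell 3 stood above the rest for ZNF283 (20.6 RPM) and ZNF676 (48.4 RPM). E36 cell 4 lay apart for ZNF582 (0.385 RPM). E36 cell 5 was the single high cell for ZNF114 (46.5 RPM), ZNF419 (39.4 RPM), ZNF420 (0.340 RPM), ZNF442 (45.5 RPM) and ZNF543 (9.85 RPM). E36 cell 6 was the highest and apart for ZNF428 (75.4 RPM), ZNF780A (43.3 RPM) and ZNF845 (17.3 RPM).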

How the results depend on the processing

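No paired analysis was possible because each sample is 1 cell and the labels tie no cell of one group to a cell of another. No value was tested, so the limits below concern counts and differences. In gonad against embryo cells, the members at least 2-fold higher and lower numbered 12 and 20 (8.01% and 15.9% of all genes). They were 2 and 0 with a pseudocount of 10 (2.199% and 3.56% of all genes). Medians over cells gave 23 and 40 (9.48% and 16.9% of all genes). Label code MS11 alone gave 50 and 38 (24.6% and 21.1% of all genes). Lower were 55 without E55 cell 2, E36 cell 5 and the E47 cell (26.2% of all genes). Without the last 2 of these 41 were lower (21.9% of all genes). Without the 3 gonad cells with at least 3 gonadal somatic markers 34 were lower (20.6% of all genes). In E20 against E16, 8 members were higher and 46 lower (14.3% and 19.6% of all genes). They were 1 and 7 with a pseudocount of 10 (5.69% and 6.51% of all genes). E20 cell 8 alone gave 35 and 82 (18.6% and 37.8% of all genes). Higher were 16 by the ratio of means (19.5% of all genes) and 18 by medians (14.7% of all genes). Among NANOG-high cells 29 were higher (16.9% of all genes). In NANOG-high against other embryo cells, 22 were higher and 25 lower (12.5% and 23.2% of all genes). They were 3 and 3 with a pseudocount of 10 (4.59% and 9.02% of all genes). Leaving out the E20 cells gave 7 and 94 (5.39% and 40.7% of all genes) and a median difference of -1.15. Higher were 43 by the ratio of means (18.8% of all genes) and 37 at a limit of 200 RPM (16.1% of all genes). Medians gave 45 lower (23.2% of all genes). Class-specific members (2, 2 and 1) numbered 12, 11 and 8 at 2-fold and 6, 13 and 4 by medians. Gonad-specific ones numbered 4 at a limit of 800 RPM and 2 without E17 cell 2 and E20 cell 5. Without either set of 3 gonad cells 1 was specific to NANOG-high cells and 3 to the gonad (1 to NANOG-high cells without the set of 2). The share of all genes was not counted for these settings or with 1 cell left out, so these numbers are no result about the members. Members low in the other embryo cells (9) numbered 18 at 2-fold, 4 at a minimum of 10 RPM, 16 at a limit of 200 RPM and 2 at 800 RPM. The alternatives for this count, those without E17 cell 2 and E20 cell 5 or without gonad cells for class-specific members, and the values 41 and 34 were chosen after seeing the data. Single genes changed sign as follows: ZNF560 in gonad against embryo (-0.15 within MS11); in E20 against E16 with E20 cell 8 alone, ZNF358 (-1.88), ZNF780A (-1.13), ZNF224 (-0.74) and ZNF534 (1.95), and among NANOG-high cells ZNF780A (-1.03), ZNF224 (-0.58) and ZNF534 (1.25); and without E20 cells, ZNF582 (-2.10) and ZNF614 (-0.66). The cause was not tested. Leaving out each cell in turn gave 18 to 32 members lower in the gonad (19.6% of all genes at 32). It gave 8 to 13 higher at E20 (16.97% of all genes at 13) and 1 to 3, 1 to 5 and 1 to 2 class-specific members. Low in the other embryo cells were 7 to 16 (4.24% of all genes at 16). At 472190 reads, the shallowest cell, 3 reads amount to several RPM, so single low members may be missed there.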
